A study of Mus musculus with 4 samples.

Results

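Pheta1, its paralog Pheta2, the inositol phosphatase genes Ocrl and Inpp5b, and the endosomal adaptor genes Appl1 and Appl2 were followed in C2C12 cells, a mouse myoblast line, given GDF10 or vehicle for 6 h. These 6 genes were taken by symbol from the 51826 genes of the count table: the Pheta genes with the phosphatases and adaptors they work with. Pheta1 was selected on the difference of its counts between GDF10 and vehicle in these same libraries, so its fall is described here and not tested. The other 5 genes came in as its partners. Of the 6 genes, 5 passed the filter on low counts, and Pheta2 did not.

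RNA sequencing was done on 2 libraries of cells with recombinant GDF10, which belongs to the TGF-beta superfamily of secreted ligands, and on 2 libraries of cells with vehicle, both for 6 h in growth medium. The labels name no genetic change in the cells and no other agent, and call the members of a group biological replicates. The dose of GDF10 is not given in the sources used here. A protocol label names longissimus dorsi muscle where the other labels name C2C12. Total counts were 29944193 and 35057429 in the GDF10 libraries and 35597310 and 29641165 in the vehicle libraries. Of 6 myoblast markers, all were detected in each library, and their summed level was 1936 to 1947 CPM (counts scaled to a common library size) with GDF10 and 1878 to 1896 CPM with vehicle. Of 5 adipocyte markers, Adipoq, Cidec, Lep and Retn had 0 counts throughout, as did the epithelial gene Epcam. Plin1, the remaining adipocyte marker, had 3 and 11 counts with GDF10 and 2 and 4 with vehicle. The 5 blood and immune markers summed to 3.39 to 3.44 CPM with GDF10 and 3.62 to 4.73 CPM with vehicle, mostly the macrophage gene Cd68, with Hbb-bs and Cd3e at 0 counts throughout. The 6 markers of mature muscle were detected at low levels, with sums of 7.61 to 10.1 CPM with GDF10 and 8.45 to 9.49 CPM with vehicle. Of these, Ckm had 148 and 181 counts with GDF10 and 178 and 131 with vehicle, and the fast myosin gene Myh4 had 0 in both GDF10 libraries and 4 and 0 in the vehicle libraries. Of 5 endothelial and epithelial markers the summed level, mostly Krt8, was 6.21 to 6.71 CPM with GDF10 and 4.17 to 5.17 CPM with vehicle, and its part in the results was not tested.

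OCRL and INPP5B remove a phosphate from the phosphoinositide that marks the plasma membrane, and so help a newly formed endosome change its lipid identity. OCRL sits on clathrin-coated pits, early endosomes and the Golgi, and in humans its loss causes Lowe syndrome. PHETA1 and PHETA2, also named Ses1 and Ses2 or IPIP27A and IPIP27B, are small proteins with a PH domain that bind OCRL and INPP5B through a short peptide motif and take part in receptor recycling and in traffic between endosomes and the Golgi. APPL1, which binds OCRL by a motif of the same kind, and APPL2 are effectors of RAB5 that coat an early class of endosomes and bind signalling proteins such as AKT. In muscle cells APPL1 is known for its part in adiponectin and insulin signalling.

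The start regions of Pheta1, whose transcript fell, and of Ocrl, the gene of its best known partner, are shown for comparison. Each runs from 250 bases before to 30 bases after the RefSeq start (build GRCm38.p6), on the plus strand, at chr5:121848747-121849026 for Pheta1 and chrX:47912206-47912485 for Ocrl. Capitals mark GGCGCC, a GC-rich element to which BMP-type SMAD proteins are known to bind, which reads the same on both strands.
Pheta1: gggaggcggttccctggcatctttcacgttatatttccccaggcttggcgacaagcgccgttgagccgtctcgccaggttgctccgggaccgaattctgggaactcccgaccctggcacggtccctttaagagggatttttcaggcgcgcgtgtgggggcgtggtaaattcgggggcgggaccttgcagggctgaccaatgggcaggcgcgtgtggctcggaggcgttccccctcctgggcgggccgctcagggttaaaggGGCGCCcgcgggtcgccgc
Ocrl: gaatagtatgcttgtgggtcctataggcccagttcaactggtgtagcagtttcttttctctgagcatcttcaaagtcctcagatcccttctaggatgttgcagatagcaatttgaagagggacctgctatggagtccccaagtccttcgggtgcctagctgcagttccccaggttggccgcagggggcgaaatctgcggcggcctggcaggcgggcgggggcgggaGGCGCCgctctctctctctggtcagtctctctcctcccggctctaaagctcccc
GGCGCC stood once in each, from base 12 of the transcribed part in Pheta1 and from 24 bases before the start in Ocrl. It also stood once in the window of Appl2, from 72 bases before the start. Of all 32851 such windows 10.9% hold it. G and C made up 66.4% of the window of Pheta1, 58.2% of that of Ocrl and 72.5% of that of Appl2. The median over all windows was 52.5%. Member windows without GGCGCC stood at 54.3% for Inpp5b and at 54.6% and 67.9% for Pheta2. The part of base composition was not tested. The shorter SMAD motif CAGAC, searched also as GTCTG, was in neither printed window, and 46.8% of all windows hold it. It was found once for Inpp5b and 3 times at one of the RefSeq starts of Pheta2. RefSeq windows were at hand for 5 of the 6 genes, Appl1 being the other one. The letters describe the windows and are not evidence of binding.

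Pheta1 had far fewer reads with GDF10 than with vehicle. Its gene (ENSMUSG00000044134; mm10 chromosome 5, 121848984 to 121854632, plus strand) had 67 and 110 counts in the GDF10 libraries, against 548 and 490 counts in the vehicle libraries. Scaled to library size, this was 2.24 and 3.16 CPM with GDF10 and 15.3 and 16.6 CPM with vehicle. Both GDF10 libraries thus lay far below both vehicle libraries, and GDF10 replicate 2 was the higher of its group. Pheta1 averaged 2.70 ± 0.651 CPM with GDF10 and 15.9 ± 0.860 CPM with vehicle (mean ± SD, n = 2 each). The fitted log2 fold change, GDF10 over vehicle, was −2.56 (standard error 0.20), with a 95% interval of −3.03 to −2.09, or 5.89-fold lower. The standard error and interval take no account of the selection of Pheta1 on these same libraries. By size of fold change Pheta1 ranked 31 among the 15467 genes tested. In bulk RNA, fewer cells that make a transcript and less transcript per cell cannot be told apart.

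**Figure D1:**
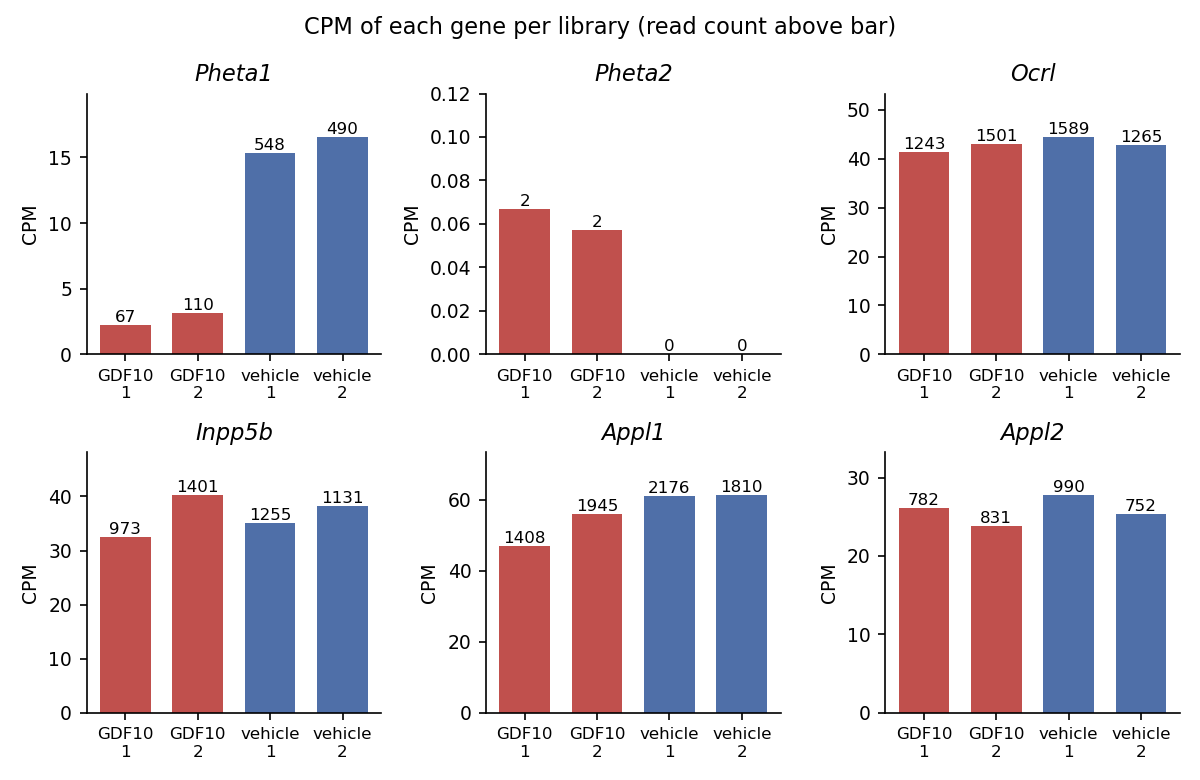
Library-size-scaled level (CPM, y axis, from 0) of the 6 genes in the 2 GDF10 libraries (red) and the 2 vehicle libraries (blue), with the read count above each bar; each panel has its own scale. Pheta1 stands at 2.24 and 3.16 CPM with GDF10 and at 15.3 and 16.6 CPM with vehicle, while the bars of Ocrl, Inpp5b and Appl2 overlap between the groups.

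The one neighbour of Pheta1 with enough reads to test did not share its fall. By the GENCODE M21 annotation no other gene shares exon bases with Pheta1. Sh2b3, an adaptor gene of cytokine signalling that lies 11338 bases away on the other strand, had 1939 and 2155 counts with GDF10 and 2324 and 1897 counts with vehicle, a fold of 0.980. Cux2, a homeobox gene 1734 bases beyond the other end, had 0 and 14 counts with GDF10 and 2 and 4 counts with vehicle and was too low to test. Of the remaining annotated genes within 20 kb, 4933437G19Rik had 0 and 6 counts with GDF10 and 2 and 0 with vehicle, and 1700008B11Rik had 1 and 13 counts with GDF10 and 9 and 5 with vehicle.

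Pheta2, the paralog, was almost silent in these myoblasts. Its gene (ENSMUSG00000049687; chromosome 15, 82338942 to 82345743) had 2 counts in each GDF10 library and 0 counts in both vehicle libraries. A count of 3 corresponds to 0.0861 to 0.100 CPM in the GDF10 libraries and 0.0840 to 0.101 CPM in the vehicle libraries, so Pheta2 lay under that floor in all 4 and no fold is given. These limits cover counting error only. Pheta2 shares 245 of its 3311 exon bases with Smdt1, a gene of the mitochondrial calcium uniporter on the same strand. Smdt1 had 2989 and 3186 counts with GDF10 and 3252 and 2463 counts with vehicle. How the counting treated reads in the shared bases is not given in the sources used here. Reads of Pheta2 in those bases, though not in the rest of its exons, may have been counted for Smdt1 or left out.

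The genes of the phosphatases that PHETA proteins bind were at similar levels in both groups. Ocrl (ENSMUSG00000001173; chromosome X, 47912387 to 47965868) stood at 41.5 and 43.1 CPM with GDF10 and at 44.5 and 42.7 CPM with vehicle, and the groups overlapped. Its log2 fold change was −0.05, with a 95% interval of −0.25 to 0.16 (adjusted p = 0.942 by edgeR's quasi-likelihood test). The direction of Ocrl turned to 0.05 when the trend of each library with exon length was removed. Inpp5b (ENSMUSG00000028894; chromosome 4, 124741850 to 124801511), the close relative of Ocrl, stood at 32.5 and 40.2 CPM with GDF10 and at 35.1 and 38.2 CPM with vehicle. Here the GDF10 libraries were the lowest and the highest of the 4, so that the vehicle values lay between them. The log2 fold change of Inpp5b was −0.01 (95% interval −0.30 to 0.28, adjusted p = 0.993). Its sign changed to 0.05 without vehicle replicate 2 and to 0.13 without GDF10 replicate 1. It shares 110 exon bases with Gm12915, on the other strand, and 16 with Mir698, and neither of these had more than 6 counts in a library.

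The adaptor genes differed from each other in how their libraries lay. Appl1 (ENSMUSG00000040760; chromosome 14, 26918988 to 26971232) stood at 47.0 and 55.8 CPM with GDF10 and at 60.9 and 61.2 CPM with vehicle. Both GDF10 libraries were below both vehicle libraries, and GDF10 replicate 1 was the lowest of the 4. Appl1 averaged 51.4 ± 6.24 CPM with GDF10 and 61.0 ± 0.171 CPM with vehicle (SD, n = 2 each), which the fit gave as a log2 fold change of −0.25 (standard error 0.10). Appl1 did not pass edgeR's test over all genes (adjusted p = 0.825; unadjusted 0.0491). Without GDF10 replicate 1 the log2 fold change of Appl1 was −0.13, and without GDF10 replicate 2 it was −0.38, neither passing the test.

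Exon length moved with the libraries over genes in general. Among the members, Appl1 and Ocrl have the longest annotated exons, at 8719 and 9486 bases. Across genes, deviations from the mean of the 4 libraries had a Spearman correlation with exon length of −0.332 in GDF10 replicate 1 and 0.0801 in GDF10 replicate 2, and of 0.114 and 0.195 in the vehicle libraries. With that trend removed, the log2 fold change of Appl1 was −0.17 and that of Pheta1, with 2412 exon bases, was −2.56. Genes are not independent replicates, and this setting was chosen after the data had been seen.

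Appl2 (ENSMUSG00000020263; chromosome 10, 83600033 to 83648738), which in mouse muscle cells is known to oppose APPL1, stood at 26.1 and 23.8 CPM with GDF10 and at 27.7 and 25.4 CPM with vehicle. The groups overlapped, and the log2 fold change was −0.09 (95% interval −0.34 to 0.16, adjusted p = 0.894 by edgeR). For Ocrl, Inpp5b, Appl1 and Appl2 the 95% intervals ran from −0.49 at the lowest to 0.28 at the highest on the log2 scale. A change as large as that of Pheta1 lay outside each of these intervals. A p that misses the threshold does not show that a level stayed the same.

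Of the 5 genes tested, Pheta1 alone passed an adjusted p of 0.05, which 0.162% of all genes tested did. In Pheta1 and Appl1 the groups did not overlap, as in 38.2% of all genes tested; in both the GDF10 libraries were the lower ones, as in 19.4% of all. Because Pheta1 was chosen for its difference in this comparison, nothing is read from either count.

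**Figure D2:**
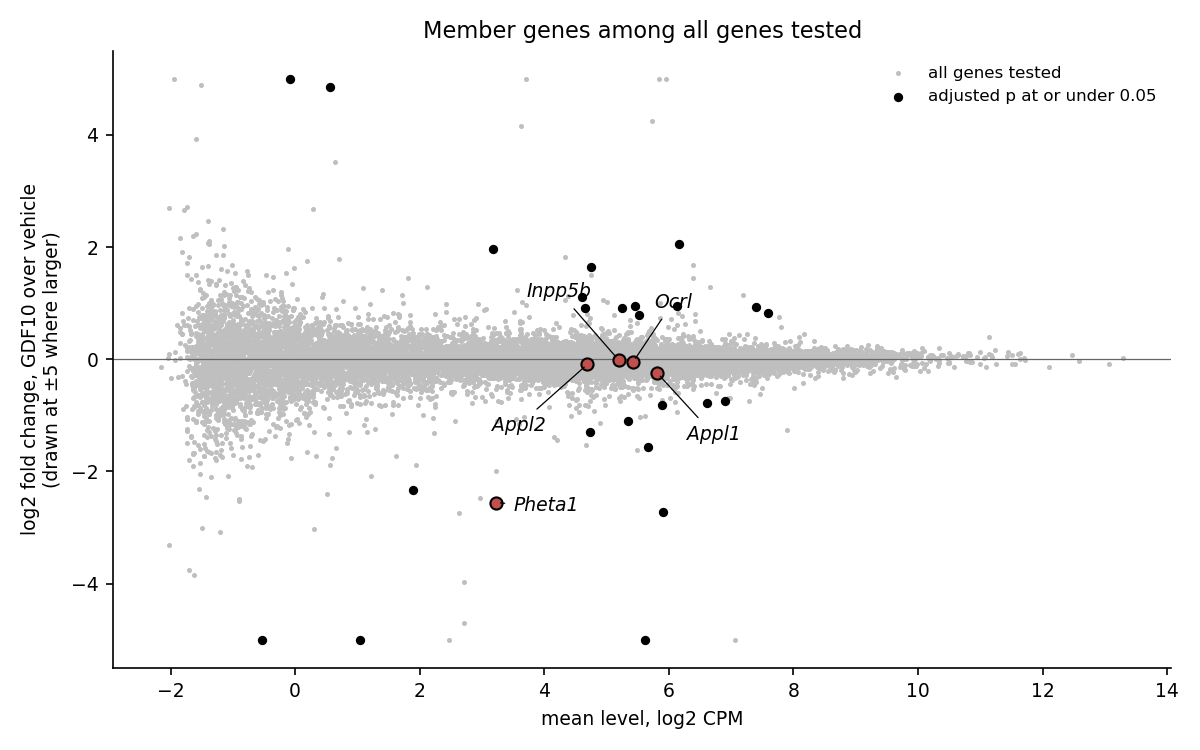
Log2 fold change of GDF10 over vehicle (y axis) against mean level in log2 CPM (x axis) for all 15467 genes tested (grey), genes with an adjusted p of at most 0.05 (black) and the 5 member genes tested (red, named). Pheta1 lies at −2.56 on the y axis, while Ocrl, Inpp5b, Appl1 and Appl2 lie between −0.25 and −0.01, within the cloud of genes at their level.

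Levels were next set against each other per kilobase of annotated exon, so that long and short genes could be compared. The length is that of all annotated exons of a gene together, and which transcripts the cells made was not tested. With vehicle the order by mean was Inpp5b at 7.87, Appl1 at 6.99 and 7.01 in its libraries, Pheta1 at 6.61, Ocrl at 4.60, Appl2 at 4.46 and Pheta2 at 0 CPM per kilobase. Neighbours in this order were not all distinct: Pheta1, at 6.36 and 6.86, lay just under Appl1, and the libraries of Ocrl and Appl2 overlapped. With GDF10, Inpp5b stood at 7.80, Appl1 at 5.89, Ocrl at 4.46, Appl2 at 4.20, Pheta1 at 1.12 and Pheta2 at 0.0187 CPM per kilobase. Ocrl and Appl2 overlapped there too. On this scale Pheta1 was close to Appl1 in vehicle cells, and in GDF10 cells it stood below each of the other genes but Pheta2.

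**Figure D3:**
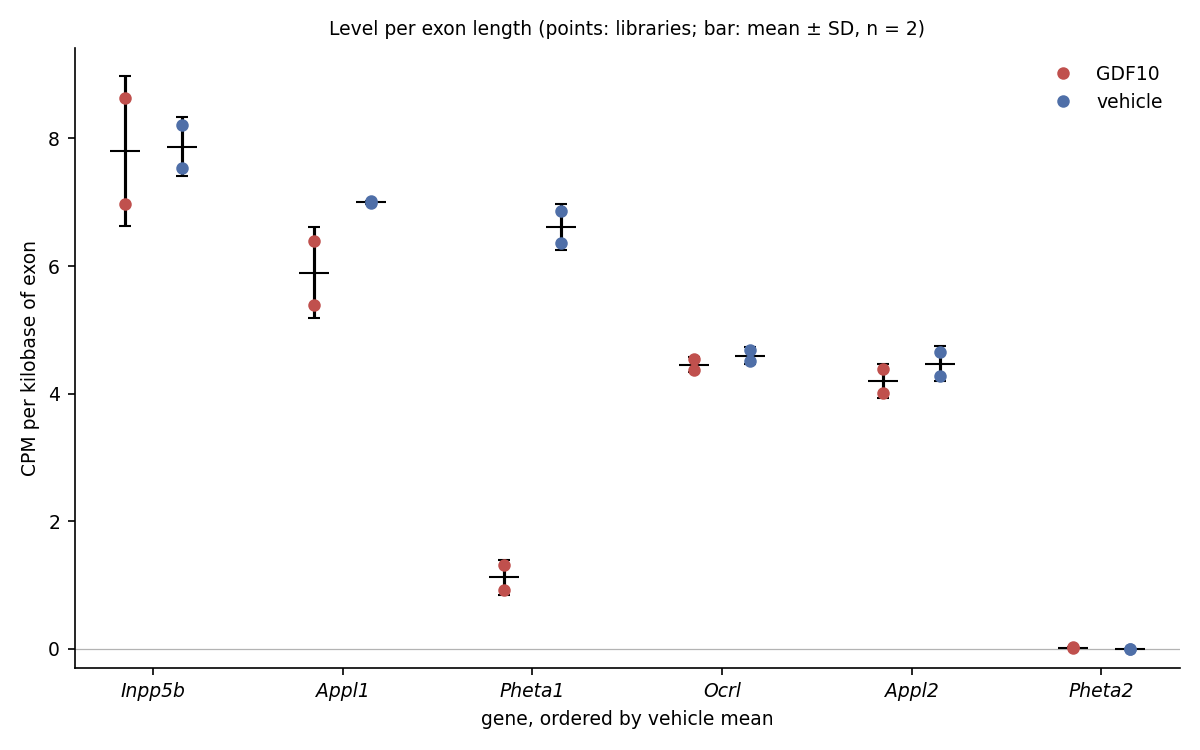
Level per exon length (CPM per kilobase of exon, y axis) of the 6 genes, ordered by their vehicle mean, in GDF10 libraries (red, left of each pair) and vehicle libraries (blue); points are libraries and bars the mean ± SD, n = 2. Pheta1 stands at 0.927 and 1.31 with GDF10 and at 6.36 and 6.86 with vehicle, the one gene whose groups are far apart.

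The same can be read within each library, where scaling plays no part. The ratio of Pheta1 to Ocrl per exon length was 0.212 and 0.288 in the GDF10 libraries, against 1.36 and 1.52 in the vehicle libraries. By this measure Pheta1 stood below Ocrl in both GDF10 libraries and above Ocrl in both vehicle libraries. That order rests on the annotated exon lengths, while the fall of the ratio between the groups does not. Of the summed level of the 6 genes per exon length, Pheta1 made up 4.20% and 5.25% with GDF10 and 21.0% and 22.2% with vehicle. The ratio of Ocrl to Inpp5b, the phosphatases, was 0.627 and 0.526 with GDF10 and 0.622 and 0.549 with vehicle. That of Appl1 to Appl2 was 1.23 and 1.60 with GDF10 and 1.50 and 1.64 with vehicle. Both of these ratios overlapped between the groups. That of Inpp5b to Appl1 did not, at 1.29 and 1.35 with GDF10 and 1.08 and 1.17 with vehicle. Inpp5b has 4657 exon bases and Appl1 8719, so the exon length trend given above bears on this ratio. With that trend removed, the log2 fold change was −0.02 for Inpp5b and −0.17 for Appl1, against −0.01 and −0.25 in the main fit. The ratio itself was not tested.

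The wider machinery around these proteins was then examined in 7 lists with 150 genes in all, of which 147 were tested. A single gene passed an adjusted p of 0.05, Pacsin2, which was higher with GDF10; 0.0840% of all genes tested passed as higher and 0.0776% as lower. The median log2 fold change of the 147 genes was −0.01, beside 0.0029 over all genes tested, and 80 of them, or 54.4%, were negative, beside 49.2% of all. The part of exon length in these values was not tested. An unadjusted p under 0.05 was reached by 12, or 8.16%, beside 5.94% of all genes tested.

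PACSIN2 is an F-BAR protein that bends membranes and is known to bind PHETA1 in human cells. Pacsin2 stood at 240.2 and 251 CPM with GDF10 and at 139 and 137 CPM with vehicle, with the groups far apart. Its log2 fold change was 0.83 (standard error 0.07, adjusted p = 0.0107 by edgeR). Pacsin2 did not pass without vehicle replicate 1, at an adjusted p of 0.0784, or without vehicle replicate 2, at 0.0628. Pacsin2 was put in its list with this difference already known. Among the other 15 genes tested of its list, small GTPases that OCRL binds and Pacsin3, none passed, and the median of the 16 was 0.07.

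The other inositol polyphosphate phosphatases gave no call among 8 genes tested, with log2 fold changes of −0.22 to 0.10 and a median of −0.01. Inppl1, which encodes SHIP2, stood at 124 and 140.5 CPM with GDF10 and at 154 and 155 CPM with vehicle (log2 fold change −0.22, adjusted p = 0.825). Inpp5e, whose product acts in the primary cilium, had a log2 fold change of −0.13 and overlapping groups. Inpp5d, of blood cells, was not tested. Among 28 phosphoinositide kinases and other phosphatases none passed, with a median of −0.03. Pik3c2a, a kinase gene of clathrin-coated pits, stood at 29.4 and 37.9 CPM with GDF10 and at 44.7 and 49.8 CPM with vehicle (log2 fold change −0.49, adjusted p = 0.752). Its log2 fold change was −0.32 without GDF10 replicate 1, −0.68 without GDF10 replicate 2 and −0.39 with the exon length trend removed. Pik3c2a shares exon bases with Gm44777, and their summed counts gave a ratio of 0.715 in CPM, GDF10 over vehicle. Pip5k1a, a kinase gene that acts against OCRL by making its substrate, had a log2 fold change of −0.15.

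On early endosomes, none of 25 genes passed, with a median of −0.03. The partner genes Rabep1 and Rabgef1, whose products rabaptin-5 and rabex-5 form a complex that activates RAB5, had log2 fold changes of opposite sign. Rabep1 stood at 41.7 and 47.9 CPM with GDF10 and at 76.6 and 70.8 CPM with vehicle, a log2 fold change of −0.72 (adjusted p = 0.0785 in edgeR and 1.95e-05 in DESeq2). Rabgef1 stood at 27.9 and 32.9 CPM with GDF10 and at 20.7 and 19.7 CPM with vehicle, a log2 fold change of 0.59 (adjusted p = 0.361 in edgeR and 0.0469 in DESeq2). In both genes the groups did not overlap, as in 40% of the genes of this list and 38.2% of all genes tested. Rabep1 and Rabgef1 were named for the lowest p of the list, so nothing is read from this. The log2 fold change of Rabep1 was −0.62 without GDF10 replicate 1 and −0.82 without GDF10 replicate 2. Rabep1 shares exon bases with Nup88, and the summed counts of the 2 genes gave a ratio of 0.829 in CPM, GDF10 over vehicle. Rab22a, named here after its values were seen, stood at 92.4 and 88.6 CPM with GDF10 and at 17.9 and 84.2 CPM with vehicle, so that vehicle replicate 1 stood apart from the other 3 libraries (log2 fold change 0.83, adjusted p = 0.907).

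No coat or recycling gene passed the test. Of 31 genes of the clathrin coat and its assembly none passed, with log2 fold changes of −0.31 to 0.24 and a median of −0.01. Epn1, an epsin gene, stood at 99.1 CPM in both GDF10 libraries and at 87.3 and 82.1 CPM with vehicle (log2 fold change 0.23, adjusted p = 0.815), and Ap2s1, the small subunit gene of the AP-2 adaptor, had a log2 fold change of 0.24. Of 32 genes of retromer and recycling endosomes none passed, with log2 fold changes of −0.32 to 0.30. Rab35, which encodes a GTPase that recruits OCRL, stood at 85.7 and 82.8 CPM with GDF10 and at 77.0 and 70.3 CPM with vehicle (log2 fold change 0.19, adjusted p = 0.825). Washc4, a subunit gene of the WASH complex, had a log2 fold change of −0.22.

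Among 15 partners of APPL proteins in signalling none passed, with a median log2 fold change of 0.02. Akt2, the kinase gene of insulin signalling, stood at 71.0 and 139 CPM with GDF10 and at 66.0 and 65.0 CPM with vehicle. The log2 fold change of Akt2 was 0.68 (adjusted p = 0.848), with 1.09 without GDF10 replicate 1 and 0.12 without GDF10 replicate 2. The fit without GDF10 replicate 1 holds GDF10 replicate 2 alone against vehicle, so its spread came from the vehicle libraries. Tgfbr1, a receptor gene of the TGF-beta family whose product is known to bind APPL1 in human cells, stood at 32.1 and 35.2 CPM with GDF10 and at 38.6 and 40.3 CPM with vehicle (log2 fold change −0.23, adjusted p = 0.825).

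**Figure D4:**
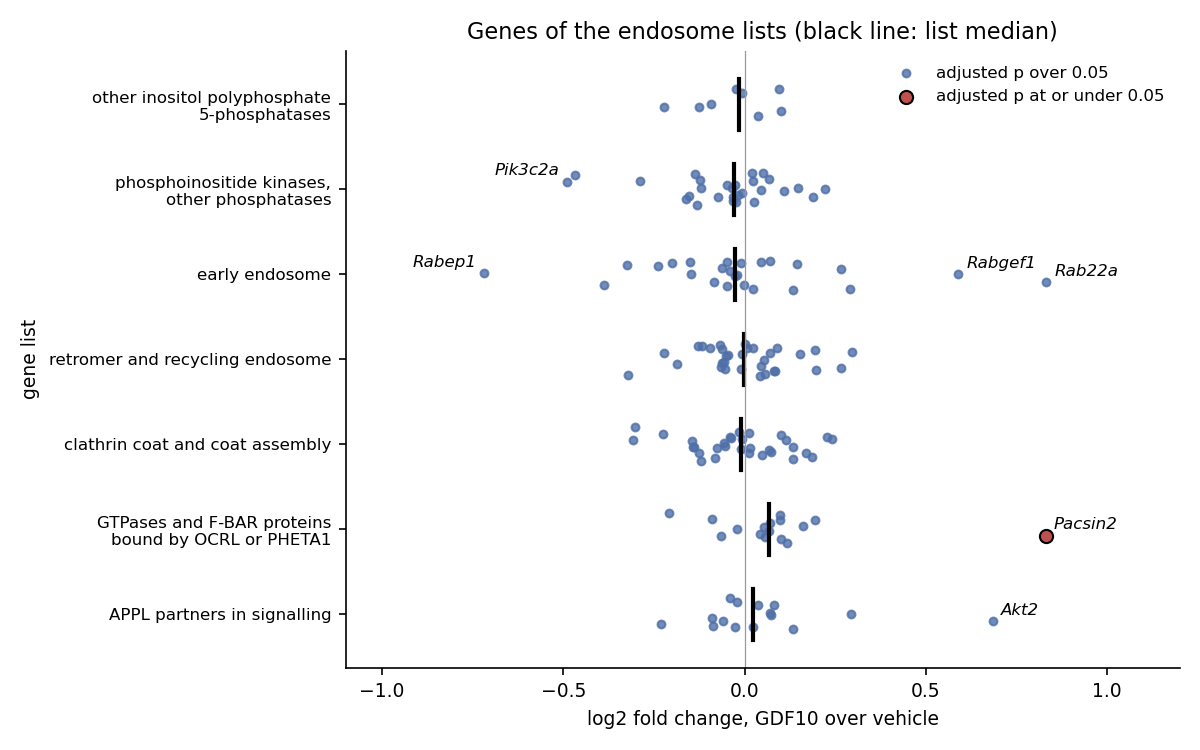
Log2 fold change of GDF10 over vehicle (x axis) for each tested gene of the 7 lists (y axis), with the list median as a black line; red marks an adjusted p of at most 0.05. Pacsin2, at 0.83, is the one red point, and the list medians lie between −0.03 and 0.07.

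The genes most like Pheta1 across the 4 libraries were Fam110b, Scamp4, Tanc2, Ccnd3 and Creb1. Likeness was the Euclidean distance between log2 CPM values centred on each gene's mean of the 4 libraries, over 11106 genes with a mean log2 CPM of at least 1. Their distances ran from 0.297 for Fam110b to 1.18 for Creb1, and the median over all candidates was 2.59. These genes were picked for small distances, so their place below the median was fixed by the choice. A gene with the same level in all 4 libraries has a distance set by the profile of Pheta1 alone. Nothing is therefore read from the median. Fam110b, a gene of a centrosomal protein, stood at 1.07 and 1.35 CPM with GDF10 and at 5.93 and 6.25 CPM with vehicle. Tanc2, a scaffold protein gene, stood at 14.8 and 28.8 CPM with GDF10 and at 67.2 and 67.5 CPM with vehicle. Creb1, a transcription factor gene, stood at 12.7 and 13.6 CPM with GDF10 and at 44.5 and 31.1 CPM with vehicle. Scamp4, of vesicle traffic, stood at 14.9 and 16.7 CPM with GDF10 and at 107 and 101 CPM with vehicle. Scamp4 shares exon bases with 3 genes, of which 2, Gm49322 and Adat3, were tested. Scamp4 summed with these 2 gave a ratio of 1.06 in CPM, GDF10 over vehicle. Ccnd3, the cyclin D3 gene, stood at 22.3 and 29.0 CPM with GDF10 and at 81.1 and 71.1 CPM with vehicle. Ccnd3 shares exon bases with Bysl, and their sum gave a ratio of 0.663. Fam110b, Tanc2 and Creb1, like Pheta1, share exon bases with no other annotated gene. Fam110b, Scamp4 and Ccnd3 passed edgeR's test (adjusted p = 0.0149, 0.000135 and 0.0231), and Tanc2 and Creb1 did not (0.825 and 0.0785). Genes picked for likeness to Pheta1 were picked for a fall of this kind, so nothing is read from these values.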

How the data were processed

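The authors deposited 1 table of raw read counts per gene, without normalization. Tools named in the submitters' processing notes are HISAT2 2.0, StringTie 1.3.3b, Trimmomatic 0.36, FastQC 0.11.2, DESeq2 1.12.4 and bedtools 2.26.0, and the build is mm10. How reads were counted, on which annotation and whether by strand, is not given in the sources used here. Columns named Con were read as vehicle. Symbols, positions and exon lengths came from GENCODE M21, which held 51633 of 51826 identifiers.

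The test was that of edgeR 4.0.16 in R 4.3.3: filterByExpr (15467 genes), TMM, robust dispersions, glmQLFit and glmQLFTest, with Benjamini-Hochberg adjustment over all genes tested and a threshold of 0.05. CPM values use library sizes scaled by TMM. Standard errors and 95% intervals were derived from each fold change and F statistic. The tests were tried on simulated counts that held no exon length trend, and nothing is read from that trial here. P-values measure only the spread between these 4 libraries, with the dispersion of each gene drawn toward a trend over all genes tested. Alternatives were DESeq2 1.42.0, limma-voom (limma 3.58.1), other scalings, no filter, a replicate block, dispersions estimated without robustness, each library left out, counts summed over genes sharing exon bases and, added after the data were seen, removal of the exon length trend (loess, span 0.3, log2 CPM with a prior count of 2).

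The members and lists were chosen with earlier results of these data known. The text names all members, every called gene of a list or otherwise its 2 genes of lowest p, the 5 genes most like Pheta1 whose symbol is not a predicted or clone name, and neighbours.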

Additional observations from a re-analysis of the deposited data

How the results depend on the processing

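The log2 fold change of Pheta1 ranged from −2.83 to −2.34 over 13 alternatives, which refit the counts it was selected on and so give no independent support. The 4 fits that leave out a library hold 1 library in that arm, which is assumed to vary like the other group. Appl1 and Appl2 kept their direction and did not pass in any of the 13. The log2 fold change of Ocrl was 0.046 with the exon length trend removed, against −0.05, and Inpp5b ran from −0.17 to 0.13 when a library was left out, with 0.05 without vehicle replicate 2 and 0.13 without GDF10 replicate 1; the cause was not tested. The number of genes called, 25, was 65 with DESeq2, 11 with limma-voom, 9 without robust dispersions and 27 to 224 when a library was left out. In the endosome lists the 1 call became 3 with DESeq2, and 0 to 5 when a library was left out. The deviations of same-numbered libraries had a correlation of 0.0696 across genes. The labels say nothing of a shared day or batch, so the samples were not treated as paired. With the replicate block 23 genes were called, and the log2 fold change of Pheta1 was −2.58. With 2 libraries a group, each interval rests on few degrees of freedom.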
